A study of Mus musculus with 36 samples.

Results

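Chromatin accessibility around 6 genes of the E protein and Id families (Tcf3, Tcf4, Tcf12, Id1, Id2 and Id3) was described in hematopoietic stem and progenitor cells of young and aged mice. Overlapping peaks of all 36 ATAC-seq libraries were merged, which gave 105005 regions, and each region took the name of the gene whose protein-coding transcription start site (TSS) lay nearest to its centre. By this rule 142 regions belonged to the 6 genes: 65 to Id2, 46 to Tcf4, 15 to Tcf12, 7 to Id3, 6 to Id1 and 3 to Tcf3. The nearest TSS is a label of position and does not show which gene a region acts on.

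All libraries came from bone marrow of C57BL/6 mice, young at 10 weeks and aged at 20 months, with 20000 sorted cells per library. The gates of HSCs and multipotent progenitors (MPP1 to MPP4) shared the phenotype IL-7-, Lin-, Sca-1+ and c-kit+. Among these, HSCs were CD34-, CD150+, CD48- and Flt3-, MPP1 differed from HSCs by being CD34+, MPP2 was in addition CD48+, MPP3 was CD34+ CD48+ but CD150-, and MPP4 carried the MPP3 phenotype with Flt3+. Granulocyte-macrophage progenitors (GMP) were Sca-1-, c-kit+, FcgR+ and CD34+, megakaryocyte-erythroid progenitors (MEP) were Sca-1-, c-kit+, FcgR- and CD34-, and common lymphoid progenitors (CLP) were IL-7+ with low Sca-1 and low c-kit. IL-7 in these labels stands for the IL-7 receptor, which the antibody of the sort bound. HSCs had 4 libraries per age and each other fraction had 2. The study describes its replicates as biological, and also describes marrow of each age as pooled and sorted in duplicate, so whether the libraries of a group came from separate animals is not settled here. The p-values measure the spread between these libraries, which may in part be technical.

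The libraries differed in the number of regions they called. Outside GMP and MEP a library called 26220 to 38676 regions, whereas the GMP libraries called 50850 to 61449 and the MEP libraries 9289 to 10667. At the 5335 regions called in all libraries, the median fold enrichment over local background was 18.5 to 20.3 in GMP, 7.52 to 7.77 in MEP and 11.6 to 15.5 in the others. Of the marker regions examined, those at the Mpo, Elane and Cebpe start sites were called in 4, 4 and 3 of 4 GMP libraries and in at most 1 other library, and the Il7r start site was called in all 4 CLP libraries, in all MPP4 and GMP libraries and in no HSC library. Other markers did not separate the fractions: the regions nearest to Prtn3, Dntt, Ebf1 and Flt3 were called in all 8 HSC libraries, as were those of the HSC markers Hlf and Mllt3, whereas that of the HSC marker Mecom was called in 0 of 8 HSC libraries and 3 of 4 each of MPP4 and GMP, and that of Procr in 4 of 8 HSC and 3 of 4 GMP libraries. In MEP, the region nearest to Epor was called in 4 of 4 libraries, but also in all 8 HSC libraries, whereas those nearest to Klf1 and Gata1 were called in 1 of 4 libraries each and that at Itga2b in none. Apart from Epor, these markers were thus called in at most 1 library of that label. Each statement that a region was absent from MEP therefore stands beside a fraction with weak enrichment throughout, and a count in GMP beside a fraction with strong enrichment; their part in the results was not tested beyond the values given without these fractions.

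E proteins are basic helix-loop-helix (HLH) transcription factors that bind E-box sequences (CANNTG) as dimers. Tcf12 encodes the factor HEB, and together with the products of Tcf3 and Tcf4 it drives commitment to the B and T lineages and to plasmacytoid dendritic cells. Id proteins have the dimerization domain but no basic DNA-binding domain, so they pair with E proteins and keep them from DNA. Id1, Id2 and Id3 are known targets of BMP and cytokine signalling, and their balance with E proteins is set early in the choice between lymphoid, myeloid and innate lymphoid fates.

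Of the 142 regions, 96 were intergenic and 34 intronic, and 12 overlapped a promoter window (the 1000 bp before a TSS and the first 100 bp after it), a class that shares members with the others. Their median width was 346 bp, against 336 bp over all regions. Regions described here are shown by the sequence of 201 bases centred on the median summit of their peaks, plus strand of the mm10 assembly, with every E-box in capitals. These sites are printed as examples of the patterns described below, and were chosen after their values were seen. The first 5 lie in the intergenic flank upstream of Id2, at chr12:25702452-25702652 (called in MPP4 and CLP alone), chr12:25164815-25165015 (called in no HSC library), chr12:25189354-25189554 and chr12:25190461-25190661 (neighbours whose heights moved in opposite directions) and chr12:25110426-25110626 (called in HSCs alone). The other sites lie 3′ of Id1 at chr2:152741573-152741773 and in an intron of Tcf12 at chr9:72097191-72097391.
Id2 605.4 kb upstream: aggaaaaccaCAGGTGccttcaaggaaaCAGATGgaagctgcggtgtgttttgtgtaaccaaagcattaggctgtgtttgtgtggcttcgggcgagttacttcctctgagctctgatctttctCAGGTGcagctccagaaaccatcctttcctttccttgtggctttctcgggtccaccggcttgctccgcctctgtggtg
Id2 67.8 kb upstream: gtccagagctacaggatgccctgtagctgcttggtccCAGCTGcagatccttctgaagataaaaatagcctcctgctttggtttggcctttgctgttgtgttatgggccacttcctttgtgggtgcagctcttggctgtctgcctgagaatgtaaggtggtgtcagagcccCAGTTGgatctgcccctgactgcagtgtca
Id2 92.3 kb upstream: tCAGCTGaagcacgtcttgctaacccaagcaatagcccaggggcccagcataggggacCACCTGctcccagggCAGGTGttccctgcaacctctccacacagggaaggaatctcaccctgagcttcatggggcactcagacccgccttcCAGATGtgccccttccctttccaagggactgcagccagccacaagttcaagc
Id2 93.5 kb upstream: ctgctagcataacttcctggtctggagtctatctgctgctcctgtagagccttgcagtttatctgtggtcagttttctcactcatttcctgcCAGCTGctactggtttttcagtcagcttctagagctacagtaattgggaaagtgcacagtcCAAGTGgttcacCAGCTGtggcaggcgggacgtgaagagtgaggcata
Id2 13.4 kb upstream: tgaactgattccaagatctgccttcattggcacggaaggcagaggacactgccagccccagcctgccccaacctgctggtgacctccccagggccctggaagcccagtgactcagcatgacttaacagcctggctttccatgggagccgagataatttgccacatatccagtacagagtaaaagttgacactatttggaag
Id1 5.5 kb downstream: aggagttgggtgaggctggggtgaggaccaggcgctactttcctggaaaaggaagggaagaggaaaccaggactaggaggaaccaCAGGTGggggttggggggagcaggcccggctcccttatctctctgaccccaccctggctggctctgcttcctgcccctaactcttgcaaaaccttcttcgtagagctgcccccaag
Tcf12 14.4 kb downstream: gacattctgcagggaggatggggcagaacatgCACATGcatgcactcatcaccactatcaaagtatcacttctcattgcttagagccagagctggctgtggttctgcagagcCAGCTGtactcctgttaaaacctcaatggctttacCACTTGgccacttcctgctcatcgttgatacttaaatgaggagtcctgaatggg

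The printed windows held 3, 2, 4, 3, 0, 1 and 3 E-boxes in the order given. Across all members, the letters CANNTG were found in 65.5% of windows (93 of 142), close to the 64.7% of windows over the 104825 regions on assembled chromosomes. Among the E-box variants, CAGCTG was present in 23.9% of member windows against 14.6% of all windows, and CAGGTG in 14.1% against 11.9%. Id2 contributed 19 of the 34 member windows with CAGCTG. The ETS-type letters GAGGAA were present in 43.7% against 34.1%, the RUNX-type letters TGTGGT in 25.4% against 25.7%, the GATA-type letters AGATAA in 8.45% against 10.3% and GGCGCC in 5.63% against 4.91%. Motifs were read on both strands, CAGCTG and CAGGTG are included in CANNTG, and a match is a description of letters only.

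Calls at the 6 genes differed among fractions. An exact test of calls against the 8 fractions (Freeman-Halton, ages pooled, Benjamini-Hochberg adjusted over all regions) called 83 of 139 testable member regions at an adjusted p under 0.05, a share of 59.7%, where the share over all tested regions was 51.9% (51751 of 99670). By gene these were 40 of 64 for Id2, 24 of 45 for Tcf4, 11 of 15 for Tcf12, 5 of 7 for Id3, 3 of 6 for Id1 and 0 of 2 for Tcf3. Without the MEP libraries 59 of 132 member regions were called (44.7%, against 41.7% of all), and without both GMP and MEP 23 of 95 (24.2%, against 20.2%). The members' share therefore lay near the share of all regions in each setting.

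The number of regions called per gene followed the fraction. Id2 had 14 to 19 regions called in an HSC library, 21 to 27 in MPP4, 20 to 28 in CLP, 38 to 43 in GMP and 1 in every MEP library. Tcf4 went from 13 to 22 regions in HSCs to 23 to 29 in GMP, and Tcf12 from 1 to 4 in HSCs to 8 to 11 in GMP and 5 to 6 in CLP. Over the whole catalogue, HSC libraries called 26701 to 37422 regions and GMP libraries 50850 to 61449. Taken over the 6 genes, member regions were 0.118% to 0.164% of all regions called in a library outside MEP and 0.0415% to 0.0656% in MEP.

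**Figure D1:**
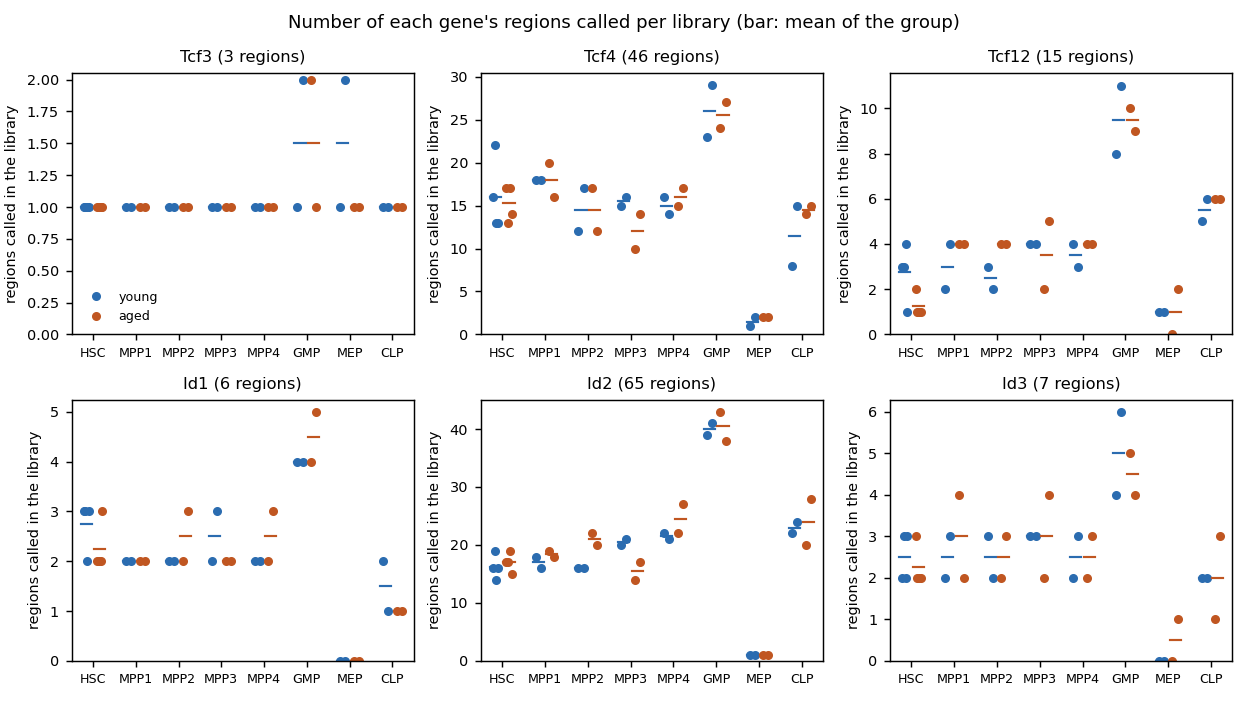
Number of regions called per library (y axis) at each of the 6 genes, by fraction (x axis), with young libraries in blue, aged libraries in orange and a bar at the mean of each group. GMP libraries lie highest for Id2 (38 to 43 regions) and Tcf4 (23 to 29), MEP libraries lowest for Tcf4, Id1 and Id2, and young and aged libraries intermix in most fractions.

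The E protein genes are described first. Tcf3 had a single region of weight. Its promoter, chr10:80433487-80434335, was called in all 36 libraries, and beside it stood only an intergenic region 12.7 kb upstream in 2 GMP libraries and an intronic one in 1 MEP library. Fold enrichment at the promoter was 7.61 to 16.3 in HSCs (median 12.1), 10.6 to 13.5 in MPP4, 10.1 to 13.3 in CLP, 20.0 to 23.4 in GMP and 5.43 to 6.71 in MEP. GMP libraries thus lay above all HSC libraries and MEP libraries below them, as did the medians of these libraries over common regions. On the log2 scale and relative to the library median, limma with age as a covariate gave a difference of 0.38 ± 0.14 (SE) between GMP and HSCs (adjusted p = 0.0291). That call ended without young HSC replicate 4, aged HSC replicate 2, young GMP replicate 1, young GMP replicate 2 or aged GMP replicate 2 (adjusted p 0.0567, 0.0555, 0.0523, 0.0959 and 0.0513).

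Tcf4 is a long gene with several start sites, and its regions spread over them. The 5′-most promoter, chr18:69344072-69344614, was called in all 36 libraries. Fold enrichment there was 8.69 to 12.5 in HSCs, 13.1 to 20.8 in GMP and 5.5 to 9.3 in MEP, with no difference from HSCs past the threshold in any fraction once libraries were centred (GMP 0.22 ± 0.14, adjusted p = 0.184, but 0.78 with adjusted p = 3.87e-05 without centring; MEP 0.27 ± 0.14, adjusted p = 0.155, but -0.47 with adjusted p = 0.00465 without centring). An internal promoter at chr18:69415433-69416014 behaved differently. It was called in all 28 libraries of HSCs, MPPs and GMP and in none of the 8 libraries of MEP and CLP (adjusted p = 3.17e-05; 9.44e-04 without MEP). Its fold enrichment was 8.19 to 18.6 in HSCs (median 14) and 9.34 to 10.2 in GMP, and it fell by 1.00 ± 0.17 on the log2 scale in GMP relative to the library median (adjusted p = 4.79e-05). A further 3′ promoter, chr18:69593103-69593732, was open in 33 libraries, and a call was present there in 3 of 4 MEP libraries. The region just upstream of it, chr18:69592378-69592870, was called in 27 libraries at low enrichment (3.9 to 10.3).

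Some intronic and 3′ regions of Tcf4 were called in HSCs and in few or no CLP libraries, while others were not: the region 16.9 kb downstream was called in all HSC and CLP libraries, that 17.4 kb upstream of its nearest TSS in 3 of 8 HSC and 4 of 4 CLP libraries, and that 49.9 kb downstream in 1 HSC and 3 CLP libraries. Calls in all HSC libraries and no CLP library were found at 4 members (2.82%), 2 of them at Tcf4, 1 at Id1 and 1 at Id2, near the 2.4% of all regions. The region 54.1 kb downstream of the nearest TSS (chr18:69666121-69666882) was called in 8 of 8 HSC libraries 4 of 4 of MPP1, MPP2, MPP3 and GMP and 3 of 4 of MPP4, but in 0 of 4 CLP libraries (adjusted p = 1.09e-04; 0.00252 without MEP). Its enrichment was 5.78 to 8.41 in HSCs, and it rose by 0.59 ± 0.15 in MPP2 (adjusted p = 0.0219) and by 0.47 ± 0.15 in MPP3 (adjusted p = 0.0349), while the same estimate of 0.59 ± 0.14 in MPP1 did not pass (adjusted p = 0.0998). The MPP2 call ended without young MPP2 replicate 1, aged MPP2 replicate 1 or aged MPP2 replicate 2 (0.0534, 0.0943 and 0.101), and the MPP3 call without young HSC replicate 2, aged HSC replicate 2 or 4, young MPP3 replicate 1 or aged MPP3 replicate 1 or 2 (adjusted p 0.0535 to 0.15). At the region 32.4 kb downstream (chr18:69644542-69645150) calls were present in all HSC, MPP and GMP libraries and 1 CLP library. Enrichment there was 5.1 to 14.6 in HSCs and 4.21 to 10.2 in GMP, a decrease in GMP by 1.11 ± 0.21 (adjusted p = 1.19e-04). The regions 22.1 kb and 77.9 kb downstream of their nearest TSS were confined to HSCs and MPPs, with calls in 19 and 17 libraries, 7 and 6 of them HSC libraries and none of GMP, MEP or CLP. Counting a fraction when at least 2 of its libraries called the region, 13% of Tcf4 regions were called in HSCs or MPPs alone. The share over all regions was 13.8%.

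Other Tcf4 regions were called mainly outside HSCs. An intergenic region 414.5 kb upstream (chr18:68929458-68929905) was called in 4 of 4 CLP and 3 of 4 GMP libraries and in no other (adjusted p = 3.15e-04; 0.0512 with only peaks at a -log10 q of at least 10). The region 6.0 kb upstream of the 5′ promoter (chr18:69338005-69338331) was absent from all 8 HSC libraries and called in 4 of 4 of MPP4 and of GMP, 2 of CLP, 2 of MPP2 and 1 of MPP1. At 416.9 kb upstream, calls were made in 2 of 8 HSC libraries 1 of MPP2 and 2 of MPP3, but in all libraries of MPP1, MPP4, GMP and CLP. In GMP alone, 6 Tcf4 regions (13%) were called in at least 2 libraries, against 22% of all regions, and 4 of them were called in all 4 GMP libraries and in no other, a pattern of 8.81% of all regions and 9.15% of the members.

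Tcf12 had its promoter at chr9:72111642-72112278. This region was called in all 24 libraries of the 4 MPP fractions, GMP and CLP but in 4 of 8 HSC libraries (3 young and 1 aged) and no MEP library (adjusted p = 0.00121; 0.0801 without MEP). Fold enrichment was 5.61 to 7.12 in the HSC libraries that called it, 6.52 to 9.23 in MPP4, 8.85 to 9.52 in CLP and 12.1 to 15.7 in GMP. The level at which a peak is called was not measured. Young HSC libraries called the Tcf4 region 33 bp upstream of a TSS at 3.71 and 3.97. The region printed above, 14.4 kb downstream in an intron (chr9:72097073-72097505), was called in 4 of 4 CLP libraries at 11.2 to 14.2 and in 2 GMP libraries at 8.47 and 11.6, and in no HSC, MPP or MEP library (adjusted p = 5.38e-04; 0.00322 without GMP and MEP). Other Tcf12 regions were called mainly in GMP: an alternative promoter at chr9:71896424-71896683 (4 of 4 GMP, 1 MPP2 and 1 MPP3 library), an intronic region at chr9:71980636-71980842 (4 of 4 GMP) and one at chr9:71952620-71952882 (4 GMP and 2 CLP). An intronic region at chr9:72037069-72037421 was the only member region called in MEP alone in 2 or more libraries, with fold enrichments of 6.53, 7.13 and 5.52 in 3 of 4 MEP libraries (adjusted p = 0.00891). That class held 0.704% of the members, near the 0.968% of all regions.

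**Figure D2:**
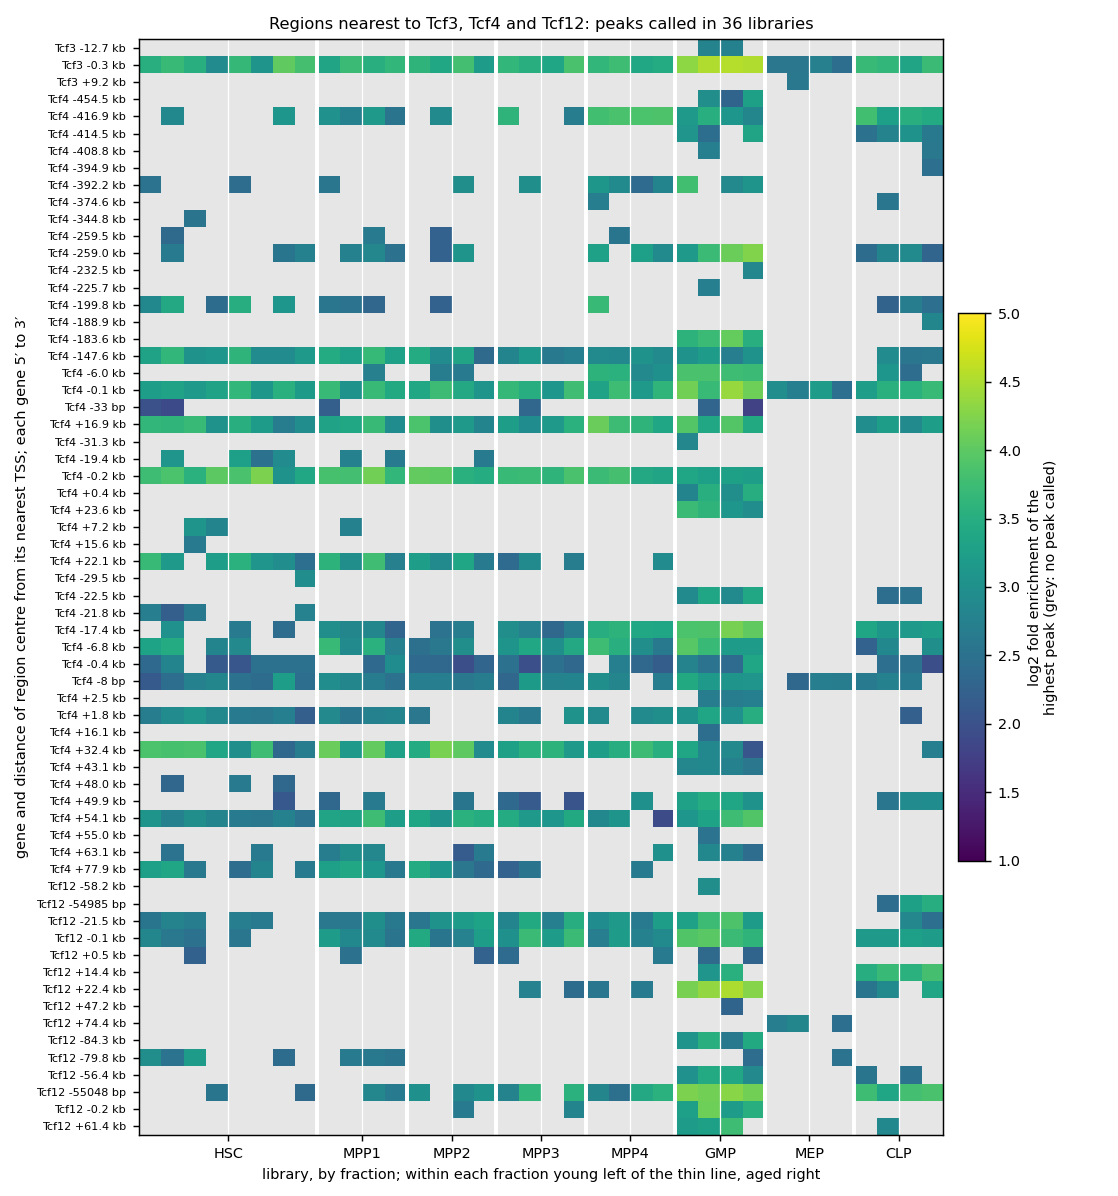
Log2 fold enrichment of the highest peak (colour) at each region nearest to Tcf3, Tcf4 or Tcf12 (rows, 5′ to 3′ along each gene, labelled by distance from the nearest TSS) in the 36 libraries (columns, by fraction, young left and aged right); grey marks no call. The Tcf3 and 5′ Tcf4 promoters are filled in every column, the Tcf4 row labelled -0.2 kb is filled in 28 libraries and grey in MEP and CLP, and the Tcf12 row labelled +14.4 kb is filled in CLP and 2 GMP libraries.

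Among the Id genes, Id1 had 2 regions called in most libraries, beside its promoter. The promoter (chr2:152736115-152736465) was called in 13 libraries, 4 of them GMP and 4 of 8 HSC, and its calls did not pass the test against fraction (adjusted p = 0.106), but did with only peaks at a -log10 q of at least 10 (adjusted p = 0.0429). A region 1.1 kb upstream (chr2:152734943-152735451) was called in 30 libraries, including 7 of 8 HSC and 3 of 4 CLP and none of MEP (adjusted p = 0.00546; 1 without MEP). The region 5.5 kb downstream (chr2:152741437-152742082), printed above, was called in all 28 libraries of HSCs, MPPs and GMP and in no MEP or CLP library (adjusted p = 3.17e-05; 0.00322 without GMP and MEP). Its fold enrichment was 6.81 to 13.1 in HSCs (median 8.41), 8.88 to 11.3 in MPP4 and 15.7 to 17.6 in GMP, with all GMP libraries above all HSC libraries. Relative to the library median the GMP difference was 0.26 ± 0.17 (adjusted p = 0.191), but 0.83 without centring (adjusted p = 2.22e-04).

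Id3 regions split by fraction within a few kilobases. The region at the 5′ end of the gene, chr4:136143572-136144014, is annotated as UTR. It was called in 1 of 8 HSC and 2 of 4 MPP1 libraries but in all 16 libraries of MPP2, MPP3, MPP4 and GMP, 3 of 4 of CLP and 1 of MEP (adjusted p = 0.0033; 0.0163 without GMP and MEP). The level was 5.1 in the HSC library that called it, 7.68 to 11.3 in MPP4 and 10.1 to 15.4 in GMP. About 1 kb downstream, the intronic region chr4:136144609-136144953 showed the opposite order: it was called in 6 of 8 HSC libraries and 3 of 4 of MPP1, MPP2 and MPP3 each, and in none of MPP4, GMP, MEP and CLP (adjusted p = 0.00417; 0.0833 without GMP and MEP and 0.225 with only peaks at a -log10 q of at least 10). Enrichment there was low, 5.27 to 7.1 in HSCs. The region 4.4 kb downstream (chr4:136147651-136148162) was called in 31 libraries and fell by 0.74 ± 0.15 in GMP relative to the library median (adjusted p = 3.47e-04). Without centring that difference was -0.17 and did not pass (adjusted p = 0.348). A region 26.3 kb upstream (chr4:136117070-136117412) reached 23.4 to 27.7 in the 4 GMP libraries and was called in 1 library each of MPP3, MPP4 and CLP.

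**Figure D3:**
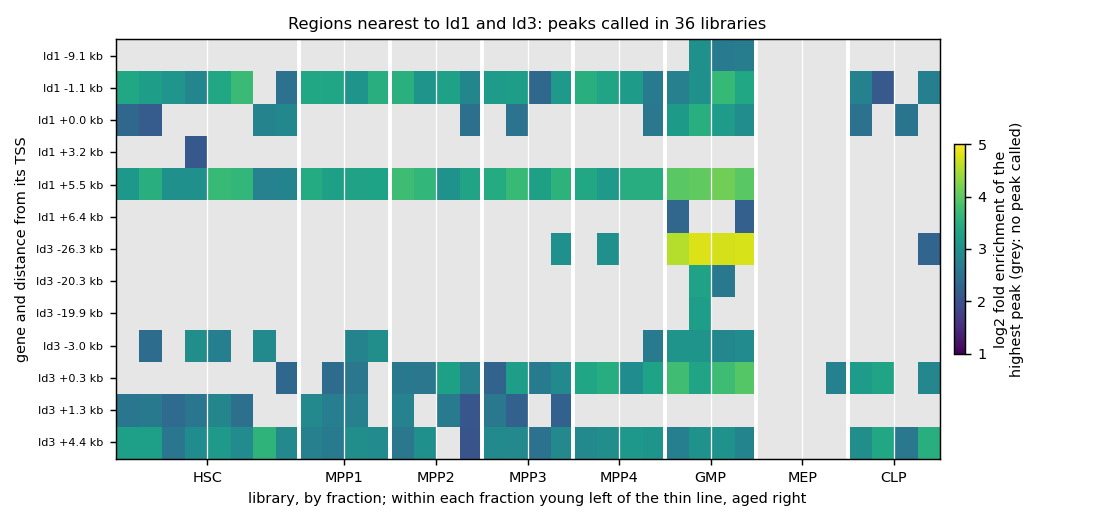
Log2 fold enrichment (colour; grey, no call) at the 6 Id1 and 7 Id3 regions (rows, by distance from the TSS) in the 36 libraries (columns, by fraction, young left and aged right). The Id1 row labelled +5.5 kb is filled in all HSC, MPP and GMP libraries and grey in MEP and CLP, and the Id3 rows labelled +0.3 kb and +1.3 kb are filled in 4 and 3 of 4 libraries of MPP2 and of MPP3, in 4 and 0 of MPP4 and of GMP, and in 1 and 6 of 8 HSC libraries.

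Id2, which encodes the Id protein required for innate lymphoid and natural killer cells, had the largest set, and 63 of its 65 regions were intergenic, and 63 lay upstream of the gene. The promoter, chr12:25095916-25096495, was called in all 36 libraries. Fold enrichment was 7.49 to 10.9 in HSCs (median 8.44), 9.18 to 10.6 in MPP4, 9.33 to 12.3 in CLP, 15.5 to 21 in GMP and 4.63 to 7.85 in MEP. Relative to the library median it rose by 0.46 ± 0.12 in GMP (adjusted p = 0.00387) and did not pass in the other comparisons, with differences from -0.12 to 0.22, the last of them in MEP, where it was -0.51 without centring (adjusted p = 0.00342).

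A set of upstream regions was called in progenitors and in no HSC library. The region 67.8 kb upstream (chr12:25164735-25165150) was called in 0 of 8 HSC libraries, 1 of 4 MPP1 libraries and all 20 libraries of MPP2, MPP3, MPP4, GMP and CLP (adjusted p = 1.75e-05; 5.28e-04 without GMP and MEP). Its fold enrichment was 12.6 to 16.2 in MPP4, 13.6 to 18.2 in GMP and 8.53 to 14.2 in CLP. The region 341.6 kb upstream (chr12:25438345-25439085) was called in no HSC library, 3 of 4 MPP1 libraries and all libraries of MPP2, MPP3, MPP4, GMP and CLP (adjusted p = 2.40e-05). The region 292.1 kb upstream (chr12:25389002-25389570) went from no HSC library through 2 MPP1, 3 MPP2 and 4 MPP3 libraries to enrichments of 10.5 to 16.5 in MPP4, 21.2 to 23.0 in CLP and 22.9 to 27.3 in GMP. All 3 were called in no HSC library and in every MPP4, GMP and CLP library, a pattern of 0.966% of all regions and of 2.11% of the members. No region of the other 5 genes had it.

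The region farthest from the gene was called in 2 fractions alone. At 605.4 kb upstream (chr12:25702355-25702716), a peak was called in 4 of 4 MPP4 libraries at 5.43, 7.51, 7.94 and 6.43 and in 4 of 4 CLP libraries at 7.97, 9.59, 6.25 and 9.3, and in none of the other 28 libraries (adjusted p = 3.17e-05; 5.19e-04 without GMP and MEP). Both ages gave this in both fractions. Calls in all MPP4 and CLP libraries with none in HSC or GMP were found at 86 regions in all, 0.0819% of the catalogue. The region 334.0 kb upstream was called in all CLP and GMP libraries and in both aged but neither young MPP4 library. The regions 80.8 kb and 233.1 kb upstream were called in all CLP and GMP libraries, 3 of 4 MPP4 and 2 of 4 MPP3 libraries, and at 80.8 kb the level was 7.03 to 10.5 in CLP against 23.4 to 28.5 in GMP.

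**Figure D4:**
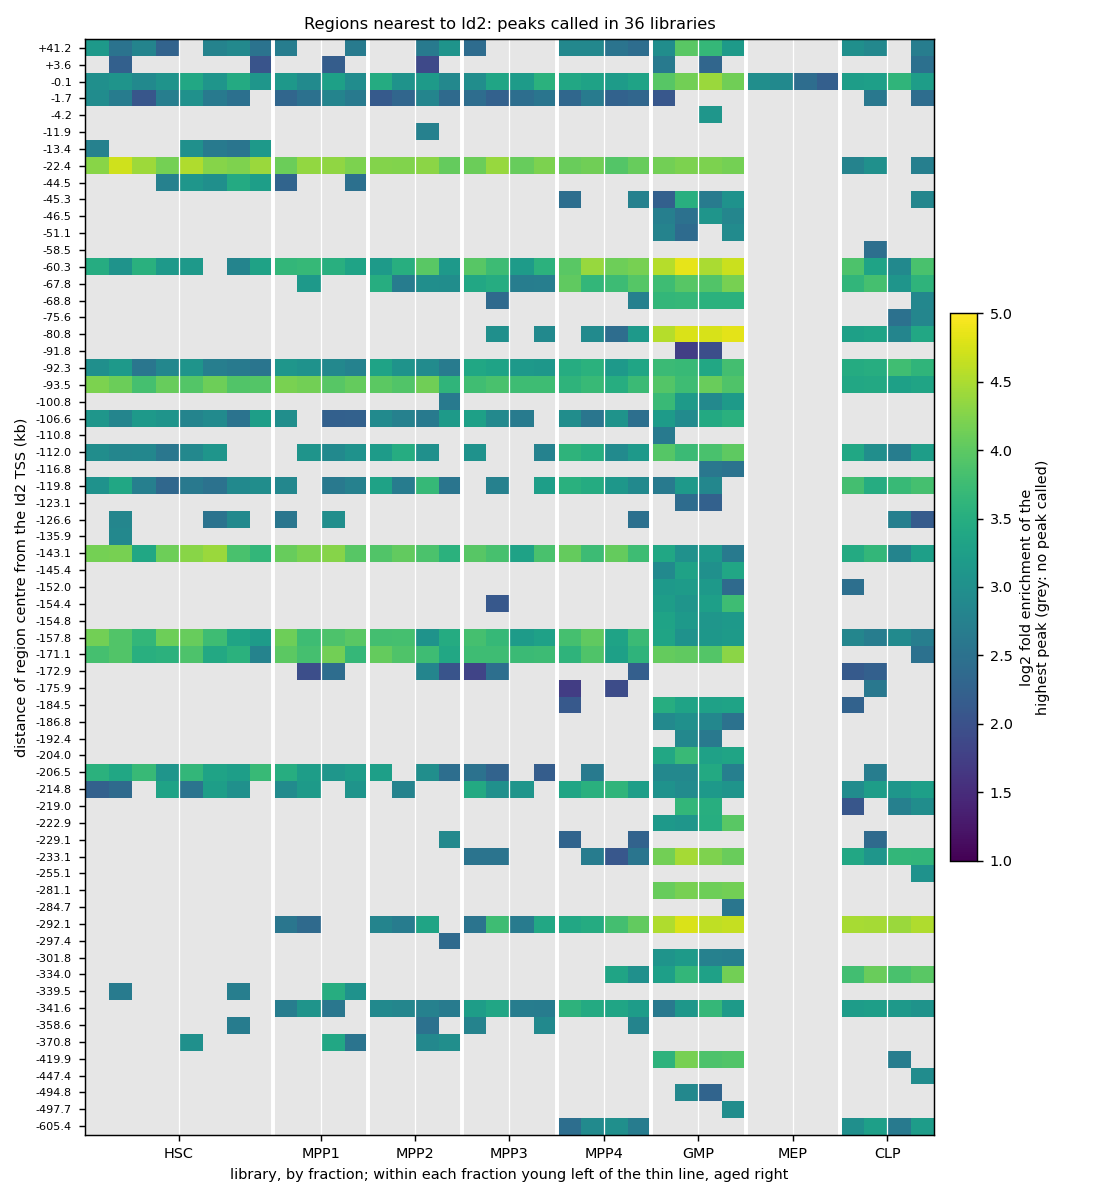
Log2 fold enrichment of the highest peak (colour; grey, no call) at the 65 regions nearest to Id2 (rows, by distance of the region centre from the TSS in kb, negative upstream) in the 36 libraries (columns, by fraction, young left and aged right). The rows 67.8, 292.1 and 341.6 kb upstream are grey in all 8 HSC libraries and filled in every MPP4, GMP and CLP library, the row 605.4 kb upstream is filled in MPP4 and CLP alone, and many rows are filled in GMP alone.

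Many Id2 regions were called in GMP alone. By the rule of at least 2 libraries in a fraction, 20 of 65 Id2 regions (30.8%) were open in GMP and in no other fraction, against 22% of all regions. Of these, 8 were called in all 4 GMP libraries and in no other library, and over the 6 genes the share with this pattern (9.15%) lay near that of all regions (8.81%). The corresponding share was 13% for Tcf4 and 26.7% for Tcf12.

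Where a peak was present in every HSC library and every library of another fraction, its height could be compared. These comparisons share the 8 HSC libraries. Over all 6 genes, the members called at an adjusted p under 0.05 were 0 of 19 in MPP1 (0.0598% of all regions tested were called), 1 of 18 in MPP2 (5.13%), 1 of 17 in MPP3 (12.1%), 3 of 17 in MPP4 (14.1%), 11 of 20 in GMP (51.2%), 0 of 3 in MEP (32.9%) and 5 of 10 in CLP (24.2%). In MPP1, 1 member and 1774 of 16711 regions had an unadjusted p under 0.05 by limma, and in MEP 0 members and 2409 of 5547 regions did. In GMP 2 members were higher and 9 lower relative to the library median, beside 3178 higher and 3936 lower over all regions. Without centring, all regions together moved by 0.53 on the log2 scale in GMP and by -0.68 in MEP; the GMP calls then became 9 higher and 5 lower, beside 9386 higher of 10191 called over all regions, and the MEP calls 3 lower, and the statements on GMP here are relative to that shift.

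Regions of the Id2 flank were among those called in MPP4, GMP and CLP. Id2 also had the most regions of the 6 genes, 65 of 142. At 92.3 kb upstream (chr12:25189116-25189801) fold enrichment was 5.89 to 8.87 in HSCs (median 6.86), 6.85 to 8.54 in MPP1, 8.68 to 10.4 in MPP3, 8.88 to 11.7 in MPP4 and 11.0 to 13.7 in CLP. It rose by 0.51 ± 0.14 in MPP4 (adjusted p = 0.0154; 0.0563 without aged MPP4 replicate 2) and by 0.76 ± 0.15 in CLP (adjusted p = 4.73e-04), where all CLP libraries lay above all HSC libraries. In GMP the region was at 10.5 to 13.9. That difference was 0.27 ± 0.14 (adjusted p = 0.117), but 0.84 without centring (adjusted p = 3.41e-05). Its neighbour at 93.5 kb upstream (chr12:25190325-25190870) moved the other way. There the values were 14.2 to 18.6 in HSCs (median 16), 15.6 to 18.3 in MPP1, 13.5 to 14.4 in MPP3, 11.2 to 13.2 in MPP4 and 9.7 to 10.7 in CLP. It fell by 0.43 ± 0.11 in MPP4 (adjusted p = 0.0061) and by 0.67 ± 0.11 in CLP (adjusted p = 4.62e-05), and no MPP4 or CLP library reached an HSC library. In GMP it was at 13.6 to 17, within reach of HSCs. That difference was -0.66 ± 0.10 (adjusted p = 1.97e-05), but -0.09 without centring (adjusted p = 0.458). Both windows printed above hold E-boxes, 4 at the former and 3 at the latter, and CAGCTG is among them in both.

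Farther upstream, the region 119.8 kb from the TSS (chr12:25216715-25217156) rose by 0.88 ± 0.15 in CLP (adjusted p = 1.66e-04), from 5.05 to 10.4 in HSCs to 11.1 to 14.1 in CLP. The next regions fell. At 143.1 kb (chr12:25239951-25240558) the enrichment was 10.4 to 21.1 in HSCs, 13.4 to 16.7 in MPP4, 7.02 to 12.6 in CLP and 6.28 to 10.4 in GMP, a decrease by 0.73 ± 0.16 in CLP (adjusted p = 0.00156) and by 1.52 ± 0.17 in GMP (adjusted p = 2.24e-07). At 157.8 kb (chr12:25254657-25255152) it was 9.19 to 17.7 in HSCs, 6.49 to 7.53 in CLP and 8.18 to 10.1 in GMP, a decrease by 0.99 ± 0.16 (adjusted p = 7.55e-05) and by 1.17 ± 0.16 (adjusted p = 2.87e-06). In MPP4 the differences at these sites were -0.15 ± 0.15 and -0.10 ± 0.15 (adjusted p = 0.55 and 0.728). The region 22.4 kb upstream (chr12:25119252-25119822), the highest of the flank in HSCs at 18 to 26.2, was 6.6 to 8.01 in the 3 CLP libraries that called it and fell by 0.37 ± 0.09 in MPP4 (adjusted p = 0.00708). Its decrease by 0.75 ± 0.09 in GMP (adjusted p = 7.65e-07) and those in GMP at Id2 93.5 kb upstream, at Tcf4 147.6 kb upstream and at Id3 4.4 kb downstream lost the threshold without centring (adjusted p = 0.0968, 0.458, 0.211 and 0.348).

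**Figure D5:**
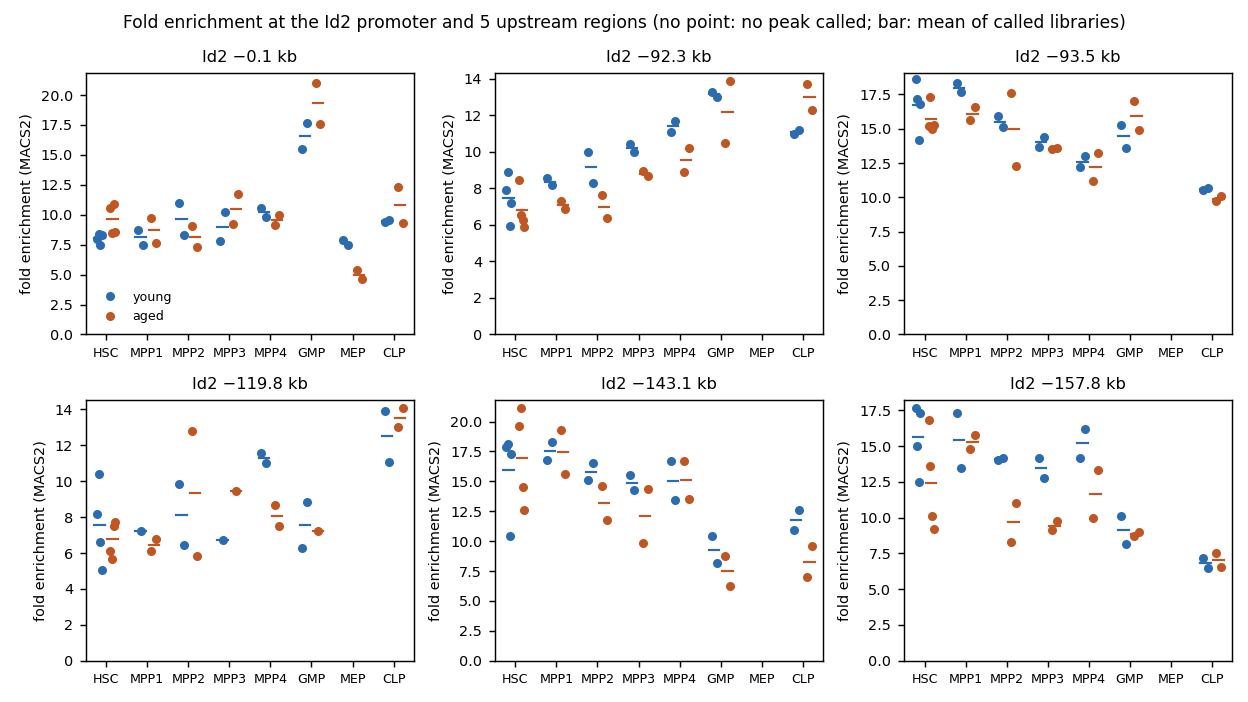
MACS2 fold enrichment (y axis, from 0) at the Id2 promoter and at 5 upstream regions by fraction (x axis), with young libraries in blue, aged in orange and a bar at the mean of the libraries of each age that called a peak. From HSC to CLP the region at 92.3 kb rises from 5.89 to 8.87 to 11.0 to 13.7 while its neighbour at 93.5 kb goes from 14.2 to 18.6 to 9.7 to 10.7.

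Between ages no member region passed a test in the main setting. Over all fractions, an exact conditional test of calls against age with fraction as stratum called 0 of 118 testable member regions, and 0% of the 85292 regions tested; 2 members and 1169 of all regions had an unadjusted p under 0.05. These were Tcf4 chr18:69592378-69592870, called in 11 of 18 young and 16 of 18 aged libraries (exact p = 0.0417, adjusted p = 1), and the Id2 region 370.8 kb upstream (chr12:25467762-25468134), called in 0 young and 5 aged libraries, of which 1 was HSC, 2 MPP1 and 2 MPP2 (exact p = 0.0278, adjusted p = 1). Within HSCs, no member region of 65 with a call was present in all 4 libraries of 1 age and absent from the other, where 0.707% of all regions with an HSC call were (365 of 51625). The closest were a pair of Id2 regions, described here after their values were seen. At 13.4 kb upstream (chr12:25110394-25110741) young replicate 1 had a peak at 6.75 and the aged libraries had peaks at 8.06, 6.2, 5.88 and 8.86, with no call in any other fraction. At 44.5 kb upstream (chr12:25141398-25141814) young replicate 4 had a peak at 6.79 and the aged libraries had peaks at 8.57, 7.92, 10.9 and 9.46, beside 1 young and 1 aged MPP1 library. Without young replicate 1, or without young replicate 4, the former or the latter was present in all aged and no young HSC library. With only peaks at a -log10 q of at least 10, 1 of 45 member regions had calls in all 4 HSC libraries of 1 age alone (0.644% of all regions).

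Fold enrichment in HSCs, tested by limma in regions called in all 8 libraries, changed with age at 0 of 21 members (0.0461% of 17340 regions were called) and over all fractions at 0 of 3 (0.0375% of 5335); 1 member (4.76%) and 0 members had an unadjusted p under 0.05, beside 9.24% and 6.88% of all regions tested. At the always open promoters the aged minus young log2 differences in HSCs were 0.25 ± 0.19 for Tcf3, 0.28 ± 0.17 for Id2 and 0.14 ± 0.17 for Tcf4 (adjusted p = 0.758, 0.674 and 0.872). The member with the smallest p was the Tcf4 region 32.4 kb downstream, with 14.6, 14.3, 14.5 and 10.2 in young and 7.93, 13.5, 5.1 and 6.41 in aged HSCs. The difference was -0.77 ± 0.23 (unadjusted p = 0.00314, adjusted p = 0.292), and aged replicate 2 lay within the young range. The median difference over the 21 members was -0.10, against 0.00 over all regions tested.

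Genes that act with the members were described by their counts. HLH partners and cofactors (13 genes, among them Id4, Tal1, Lyl1, Lmo2 and Ldb1) had 164 regions, of which 81 of 160 tested differed in calls among fractions (50.6%). Lymphoid genes known to be bound or activated by E proteins had regions at 14 of 18 genes, with 136 of 240 called (56.7%). BMP, Smad and Egr genes upstream of the Id genes (14 genes, a list that also held Jak2, Stat5a and Stat5b) gave 112 of 196 (57.1%). All lay near the 51.9% of all regions. Age called 0 regions of each list in the exact test over all fractions, where 0 of 129, 6 of 198 (3.03%) and 2 of 167 (1.2%) had an unadjusted p under 0.05, against 1.37% of all regions. In HSCs 1 region of the lymphoid list, which held 241 regions in all, was called in all 4 libraries of 1 age alone. Over all regions with an HSC call the share was 0.707%. The number of list regions with an HSC call is not given here, so the count is not set against that share.

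Genes whose number of called regions over the 36 libraries ran most like that of a member were Reep3, Elmo1 and Rap2a for Tcf4 (Pearson r 0.94 each) and Smim8, Zc3hav1 and Acer3 for Tcf3 (0.75, 0.73 and 0.72). For Id2 they were Dusp6, Haao and Maml3 (0.97, 0.97 and 0.96), for Id1 Emcn, Pik3cd and Ppp1r3b (0.93, 0.92 and 0.92) and for Id3 Nt5c2, Jade2 and Ubash3b (0.90, 0.90 and 0.89). The Tcf3 count was 2 in young GMP replicate 2, young MEP replicate 2 and aged GMP replicate 1, and 1 in every other library. Its correlations therefore rest on a difference of 1 region in those libraries. The libraries share their depth of calling in these counts, from 9289 regions in an MEP to 61449 in a GMP library. After division by each library's total, Reep3 and Elmo1 stayed for Tcf4 (0.87 and 0.85), Emcn and Ppp1r3b for Id1 (0.88 and 0.87) and Dusp6 for Id2 (0.93), and none for Tcf3 and Id3.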

How the data were processed

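ATAC-seq peak lists of 36 libraries were used as deposited. Per the study's methods and the submitters' processing notes, the authors aligned 60 bp reads with Bowtie2 to mm10, subsampled mapped reads to equal depth and called peaks per library with MACS2 (2.2.6) at a q-value of 0.001, without pooling. Each deposited entry is a summit with a score, a ratio of fold enrichment over local background, and -log10 p- and q-values computed by the authors. They hold no read counts, so the depth behind a value is unknown and no count model was run; a region without a call has no value, which is not a value of 0.

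Peaks overlapping by 1 bp were merged and assigned to the nearest protein-coding TSS (GENCODE M21). The highest fold enrichment per region was log2 transformed, centred on the library median and fitted with limma (3.58.1, R 4.3.3). Calls were tested by exact tests in Python (3.11.15). Adjusted p-values are Benjamini-Hochberg over all regions tested. Both scripts were tested on simulated data. Named regions were those at member promoters, those called in all 36 libraries, those past an age threshold, and per gene the 3 others with the smallest adjusted p among fractions; all other regions in the text were chosen after their values were seen, as examples of a class or because a fit of fold enrichment called them. Most alike genes had at least 5 regions. Those of Tcf12 are not reported here. The members, lists and rules were chosen with earlier results of these data known. Sequences are from the GRCm38.p6 genome, the assembly of mm10. Alternatives covered a -log10 q of at least 10, coverage of 50% of a region, equal peak numbers, centring, quantile normalisation, a missing library, a replicate block and leaving out libraries; leaving out MEP or GMP and MEP was chosen after seeing the data.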

Additional observations from a re-analysis of the deposited data

Results flagged for a closer look

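In the HSC groups of 4 libraries, 1 library stood apart from the other 3 by Dixon's test in 9 of 51 values examined. Chance gives about 1 in 20 for measured values, but that rate does not hold for counts with ties, which are 4 of the 9, so no excess over chance is claimed. At the Id2 region 143.1 kb upstream, young replicate 3 had a fold enrichment of 10.4 against 17.3 to 18.1 in the other young HSC libraries. At the Tcf4 region 32.4 kb downstream, young replicate 4 had 10.2 against 14.3 to 14.6. At the Id2 region 93.5 kb upstream, aged replicate 2 had 17.3 against 15 to 15.3. At the Tcf4 promoter region labelled -0.4 kb, aged replicate 1 had 4.19 against 5.65 to 5.66, and at the 3′ Tcf4 promoter 8 bp upstream of a TSS, aged replicate 3 had 9.42 against 5.31 to 5.61. The other cases were counts of called regions that differed by 1 region: Id1 with 2 in young replicate 3 against 3, Tcf12 with 2 in aged replicate 1 against 1, Id1 with 3 in aged replicate 4 against 2, and Id3 with 3 in aged replicate 1 against 2.

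The number of member regions called moved in opposite directions with age in MPP2 and MPP3, with no overlap between the ages in either. Over the 6 genes the mean rose by 7 regions in MPP2 (38.5 young, 45.5 aged) and fell by 9.5 in MPP3 (46.5 young, 37 aged), and for Id2 it rose by 5 in MPP2 (16 to 21) and fell by 5 in MPP3 (20.5 to 15.5). Each age had 2 libraries and the difference was not tested. The number of regions called over the whole genome was 30898 and 31683 in young and 36547 and 30342 in aged MPP2, and 33278 and 33555 in young and 26220 and 31427 in aged MPP3. As a share of those regions, the members were 0.12% and 0.126% in young against 0.131% and 0.142% in aged MPP2, and 0.135% and 0.143% in young against 0.118% and 0.137% in aged MPP3, where the ages overlapped.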

How the results depend on the processing

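The 83 member regions whose calls differed among fractions became 23 with the GMP and MEP libraries left out, where fewer libraries and regions were tested. With only peaks at a -log10 q of at least 10, fewer regions were tested: the HSC age comparison of calls gave 1 of 45 members (main 0 of 65; 0.644% of all regions), MPP3 2 of 12 (main 1 of 17; 10.4%), GMP 7 of 11 (main 11 of 20; 50.9%) and CLP 2 of 5 (main 5 of 10; 21.6%). The comparisons of 3 regions, MEP and age over all fractions, had no member left. With 1 missing library allowed, MPP3 gave 2 of 24 (12.7% of all regions) and MEP 1 of 4 (31.8%), and without centring MEP gave 3 of 3 (86.5%). Under quantile normalisation 12 members were called in GMP, 3 of them higher, beside 6553 of all regions. The region at Id2 92.3 kb upstream was then called in GMP (0.39, adjusted p = 0.0363). The member counts of the other fold enrichment comparisons stayed as in the main fit. Leaving out single libraries gave 0 to 1 member for the HSC age calls, 0 to 1 of 18 to 20 for MPP2, 0 to 2 of 17 to 19 for MPP3 and 0 to 1 of 3 or 4 for MEP. Where these counts moved, the share of all regions called was 1.06% to 1.12%, 2.69% to 3.86%, 5.96% to 13% and 26.6% to 28.4%; the cause was not tested. Among the regions named by rule, the call against fraction was lost in 20 of 120 combinations of region and other setting, at 10 regions, and gained in 1. With single libraries left out it was lost in 4 of 935 combinations, all at the Tcf4 region labelled -0.4 kb without 1 MEP library (adjusted p 0.0534 to 0.0536), and gained in 4, at 2 regions. No difference called after centring changed sign without it. Differences that were not called did: without centring the MEP difference went from 0.22 to -0.51 at the Id2 promoter and from 0.27 to -0.47 at the 5′ Tcf4 promoter, and the GMP difference from -0.05 to 0.51 at Id2 171.1 kb upstream and from -0.06 to 0.51 at Tcf4 1.8 kb downstream, all 4 then past the threshold.

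The replicate numbers did not pair young and aged HSCs (correlations 0.08, 0.09, 0.18 and -0.08), nor did every library correlate best with its own number. Young replicate 3 correlated at 0.18 and 0.19 with aged replicates 3 and 4, and at -0.20 and -0.17 with aged replicates 1 and 2. The other young replicates had correlations from -0.09 to 0.10. Whether the HSC libraries formed sets was not tested, and the fits held no term for a set. With a replicate block, 0 members were called in each of the 3 age comparisons that could be blocked, as without it.

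The lists give no read counts, and a peak under the calling threshold has no value. An absent call, in MEP or in HSCs, therefore sets no upper limit on accessibility.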
